A study of Mus musculus with 7 samples.

Results

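The OAS and IFIT genes encode cytoplasmic proteins that recognize foreign RNA, and 9 of them were followed by symbol in the UMI counts of single cells from 7 mouse tumors, namely Oas1a, Oas2, Oas3, Oasl1, Oasl2, Ifit1, Ifit2, Ifit3 and Ifit3b. They are 9 of the 33696 genes in the feature list and took 171648 of 646559899 UMIs (unique molecular identifiers, each counting 1 captured transcript), or 265 counts per 1000000 UMIs (CPM). The tumors came from JW23.3, a single mouse malignant peripheral nerve sheath tumor (MPNST) cell line with mutant Nf1, of which 5000000 cells were placed in the flank of female wild-type C57/B6 mice aged 5 to 6 weeks. Mice were randomized by tumor size on day 7. The 4 irradiated tumors received 5 daily fractions of 2 Gy under lead shielding of the body, the 3 control tumors received no radiation, and all were harvested on day 21, dissociated with papain and loaded at 10000 cells per library on a 10x Genomics 3′ assay. All 7 tumors grew from this 1 line in hosts with an intact immune system, so they do not differ in the genotype of the line.

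OAS enzymes bind double-stranded RNA and link ATP into short oligoadenylates, the second messenger 2-5A. Oasl1 and Oasl2 are OAS-like proteins that carry ubiquitin-like domains, and Oasl1 is known as a brake on translation of Irf7. IFIT proteins are built of tetratricopeptide repeats; Ifit1 captures RNA whose 5′ end lacks the methylation of host messages, and Ifit2, Ifit3 and Ifit3b are its relatives and partners. All are transcribed when type I interferon, through the receptor chains Ifnar1 and Ifnar2, brings factors that include Stat2 and Irf9 to interferon-stimulated response elements, and in tumors they serve as a common readout of interferon exposure after radiation.

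The stretches before the transcription start of 5 of these genes are shown because they hold the core letters of that response element. The motif searched was GAAA, any 2 bases and GAAA again, read on both strands (TTTC, any 2 bases and TTTC on the other). In the 250 bases before each start in the RefSeq promoter table it was found for 936 of 27025 genes (3.46%). It was found for 5 of the 8 family members that the table holds, and 4 of those had at least 2 matches, as did 57 genes of the table (0.211%). Oas2 had no entry, and the letters did not occur in the windows of Oasl1, Oasl2 and Ifit2. Capitals mark the matches, build GRCm38.p6, each sequence written 5′ to 3′ along the gene's own strand.
Oas3, chr5:120777660-120777779, minus strand: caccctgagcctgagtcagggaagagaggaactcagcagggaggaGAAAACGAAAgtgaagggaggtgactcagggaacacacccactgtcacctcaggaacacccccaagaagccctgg
Oas1a, chr5:120907526-120907645, minus strand: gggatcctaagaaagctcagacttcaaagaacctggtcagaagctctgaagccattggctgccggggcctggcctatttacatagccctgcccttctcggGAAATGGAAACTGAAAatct
Ifit3, chr19:34583329-34583528, plus strand: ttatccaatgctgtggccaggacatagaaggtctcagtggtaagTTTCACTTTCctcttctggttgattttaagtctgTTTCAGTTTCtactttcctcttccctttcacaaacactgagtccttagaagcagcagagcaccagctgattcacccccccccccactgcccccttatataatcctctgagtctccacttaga
Ifit3b, chr19:34607757-34607956, plus strand: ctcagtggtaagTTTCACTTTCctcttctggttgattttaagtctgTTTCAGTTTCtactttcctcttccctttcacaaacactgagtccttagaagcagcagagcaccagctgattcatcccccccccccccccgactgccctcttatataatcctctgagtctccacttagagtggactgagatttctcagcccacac
Ifit1, chr19:34640769-34640888, plus strand: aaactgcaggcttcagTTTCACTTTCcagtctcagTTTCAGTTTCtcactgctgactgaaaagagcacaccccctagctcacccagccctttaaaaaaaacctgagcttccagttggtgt
The Ifit1, Ifit3 and Ifit3b windows carry the same pair of matches, TTTCACTTTC and TTTCAGTTTC, in the same order. In Ifit1 they end 95 and 76 bases before the start, in Ifit3 147 and 113, and in Ifit3b 179 and 145. The pair in Oas1a overlaps and ends 11 and 5 bases before the start, whereas the single match in Oas3 ends 66 bases before it. In the GENCODE vM21 annotation, 18 bases at the end of the Ifit1 window and 2 at the end of the Oas3 window are 5′ untranslated exon, and the other 3 windows overlap no annotated transcript. RefSeq gene spans of Oas1a, Oas3, Ifit3 and Ifit3b begin upstream of the start used in the table. A match is a run of letters and not evidence of a bound factor. Upstream of the start, Ifit3 and Ifit3b were identical at 217 of 224 aligned bases (96.9%).

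The family lies in blocks. Oasl2 and Oasl1 are neighbors on chromosome 5 (114896926 to 114912245 and 114923143 to 114937911), and Oas2, Oas3 and Oas1a lie farther along it between 120730333 and 120907544. The IFIT genes lie side by side on chromosome 19 between 34550550 and 34650009. In the 500 bases nearest the 3′ end, where this assay reads, 42.3% of 90-base windows of Oas1a were also in Oas1g and 6.57% of those of Ifit3 were also in Ifit3b. Reads from shared windows cannot be told between copies and may be lost from the counts, so the levels of these pairs are uncertain. The remaining members shared none.

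Cells were assigned to 4 classes by marker genes, and 29599 of the 34300 cells that passed the filters entered one: 12311 macrophages, 1409 T/NK cells, 930 stromal cells (485 endothelial, 169 pericyte and 276 fibroblast cells) and 14949 tumor cells. The gates held no monocyte list, so the macrophage class may include monocytes. Xist, which female host cells transcribe, had a UMI in 88.8% of macrophages, 89.9% of T/NK cells and 94.6% of stromal cells. Pericyte and fibroblast cells were required to have it and tumor cells to have none, so the gate in part sets the stromal share. Endothelial cells, gated without Xist, had it in 89.7%. The median cell held 6444, 3112, 7379 and 22417 UMIs in macrophages, T/NK, stromal and tumor cells. Levels are therefore given in CPM, from counts summed over the cells of a class within a tumor. Libraries held 2859 to 8452 cells and 53496570 to 153044123 UMIs. Any 2 libraries shared 3 to 19 barcodes. By cell number, depth, genes per cell, mitochondrial share and share of dissociation stress transcripts, irradiated tumor 1 and control tumors 2 and 3 lay nearest each other (here technical set 1) and the other 4 libraries nearest each other (technical set 2). This was the best of 63 ways to part the libraries, at 0.533 of the variation left within sets against 0.563 for the next best. The labels name no batch, so no label says what the sets stand for.

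Transcripts of the 9 genes were found in all 4 classes, but the mix differed by class. By the median of 7 tumors, macrophages had the highest Oas1a, Oas2, Oasl1, Ifit2 and Ifit3, stromal cells the highest Oasl2, Ifit1 and Ifit3b, and T/NK cells the highest Oas3. Tumor cells were lowest for 7 of 9 genes, T/NK cells for Oasl2 and macrophages for Ifit1. Over the 7 tumors the summed level of the 9 genes had a median of 583 CPM in macrophages (305 to 1186), 352 in T/NK cells (252 to 504), 653 in stromal cells (296 to 892) and 194 in tumor cells (69.5 to 387).

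**Figure D1:**
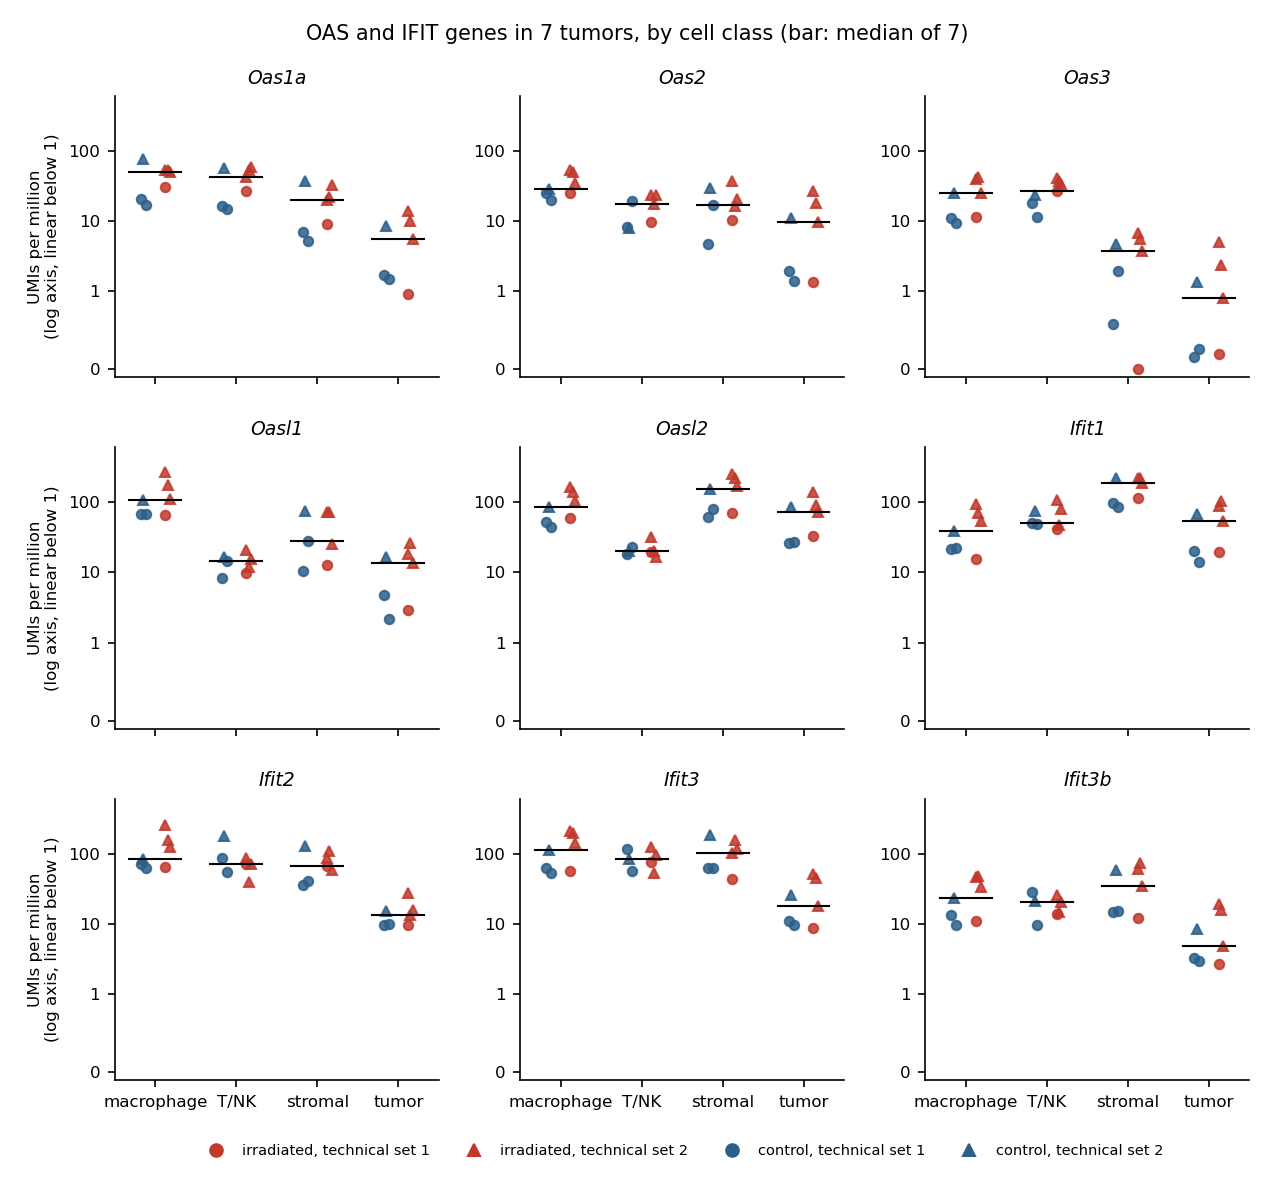
Each panel shows 1 gene, each point the CPM of 1 tumor summed over the cells of a class (log axis, linear below 1), and each bar the median of 7 tumors; red is irradiated, blue is control, circles are technical set 1 and triangles technical set 2. Oas3 in tumor cells has a median of 0.910 against 25.1 in macrophages, and in macrophages every triangle lies above every circle for all 9 genes.

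The enzymes that make the second messenger were higher in macrophages than in tumor cells. Oas3 had 11.6, 42.6, 25.3 and 39.8 CPM in macrophages of irradiated tumors 1 to 4 and 25.1, 9.50 and 11.1 in control tumors 1 to 3. In T/NK cells the same tumors gave 26.5, 37.5, 33.5 and 40.6 and 23.4, 11.4 and 18.1. In tumor cells they gave 0.197, 2.34, 0.910 and 4.96 and 1.35, 0.260 and 0.163. No tumor's Oas3 level in tumor cells reached the lowest level in macrophages or T/NK cells of any tumor. By edgeR's quasi-likelihood test on summed counts with the tumor as a block, Oas3 was higher by 4.86 ± 0.28 (log2 fold change ± SE) in macrophages (adjusted p = 9.15e-14) and by 4.64 ± 0.36 in T/NK cells (adjusted p = 3.13e-11). Between macrophages and T/NK cells the Oas3 difference was 0.23 ± 0.31 (adjusted p = 0.553), within the error, and turned to -0.18 with counts scaled by library totals only. Stromal cells had 0, 5.45, 3.78 and 6.68 in irradiated and 4.75, 1.92 and 0.585 in control tumors, from only 23 UMIs. Irradiated tumor 1 had none in its stromal cells, which allows a level of up to 1.80, and the 169 pericytes held none, which allows up to 1.88. These limits, like the counts, cover counting error only.

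Oas1a encodes the smallest synthetase. It ran from 16.9 to 75.6 CPM in macrophages, 14.7 to 58.1 in T/NK cells, 5.12 to 37.2 in stromal cells and 0.961 to 14.1 in tumor cells. Macrophages exceeded tumor cells by 3.52 ± 0.23 (edgeR adjusted p = 1.34e-12), and T/NK cells exceeded stromal cells by 1.06 ± 0.33 (edgeR adjusted p = 0.00694). The edge of macrophages over T/NK cells, 0.66 ± 0.27, passed the threshold narrowly (edgeR adjusted p = 0.0360). Oas2, the middle enzyme, was lower in T/NK cells than in macrophages, with a median of 17.4 there (7.81 to 23.8) against 28.5 in macrophages (19.8 to 53.2) and a difference of 1.74 ± 0.48 (edgeR adjusted p = 0.00335). In tumor cells Oas2 had 1.36, 17.8, 9.59 and 26.9 in irradiated and 10.9, 1.39 and 1.93 in control tumors, so that irradiated tumor 1 and control tumors 2 and 3 lay far below the other 4.

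The OAS-like genes differed in where they were highest. Oasl1 in macrophages had 65.1, 177, 109 and 271 CPM in irradiated tumors and 106, 66.8 and 66.8 in controls. In T/NK cells it had 9.77, 12.1, 15.6 and 20.7 and 16.7, 14.7 and 8.22. The lowest macrophage value was above the highest T/NK value, and the difference was 3.63 ± 0.36 (edgeR adjusted p = 6.82e-09). Against stromal cells it was 2.11 ± 0.28 (edgeR adjusted p = 5.65e-07) and against tumor cells 3.96 ± 0.26 (edgeR adjusted p = 3.65e-12).

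Oasl2 was the member with the smallest gap between macrophages and tumor cells among those called. Tumor cells had 33.0, 89.9, 72.2 and 137 in irradiated and 86.5, 27.3 and 26.6 in control tumors. T/NK cells had 19.5, 20.1, 16.8 and 32.2 and 20.1, 22.8 and 18.1, below tumor cells in every tumor. Stromal cells had 69.6, 219, 171 and 247 and 152, 79.4 and 61.5. Oasl2 was lower in T/NK than in tumor cells (log2 fold change -1.60 ± 0.18, edgeR adjusted p = 1.24e-08), the only member lower in a host class than in tumor cells past the threshold. Macrophages and stromal cells did not differ beyond error (-0.14 ± 0.13, edgeR adjusted p = 0.371). Of all OAS UMIs in a class, Oasl2 made up 70.8% in tumor cells, 65.4% in stromal cells, 29.9% in macrophages and 20.1% in T/NK cells (medians of 7 tumors), and Oasl1 made up 13.2%, 19.1%, 37.9% and 11.9% in the same order. Oas3 made up 25.4% in T/NK cells and 0.892% in tumor cells.

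Among IFIT genes, Ifit1 was highest in stromal cells. Stromal cells had 113, 222, 190.0 and 221 CPM in irradiated and 218, 83.9 and 97.8 in control tumors. Macrophages had 15.7, 69.1, 53.7 and 92.7 and 39.3, 21.95 and 21.2. In every tumor the stromal level was above the macrophage level (log2 fold change of macrophages over stromal cells -1.57 ± 0.21, edgeR adjusted p = 3.74e-07). Tumor cells had 19.3, 103, 53.5 and 86.9 and 67.4, 14.2 and 19.9, and Ifit1 was the member for which macrophages and tumor cells could not be told apart (0.24 ± 0.19, edgeR adjusted p = 0.247, and -0.14 with totals only). Ifit1 made up 46.3% of IFIT UMIs in stromal cells and 47.7% in tumor cells, against 15.0% in macrophages and 28.8% in T/NK cells.

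Ifit2, an IFIT protein linked to cell death, made up 42.1% of IFIT UMIs in macrophages and 17.3% in tumor cells. It had 64.01, 157, 124 and 258 CPM in macrophages of irradiated tumors and 84.9, 62.8 and 70.8 in controls. Tumor cells had 9.63, 13.4, 16.0 and 27.5 and 15.3, 9.93 and 9.50. All macrophage values lay above all tumor cell values, with a difference of 3.35 ± 0.25 (edgeR adjusted p = 4.10e-11). Ifit3 was higher in macrophages than in tumor cells by 2.77 ± 0.25 and Ifit3b, its close copy, by 2.20 ± 0.19. Ifit3b did not differ beyond error between macrophages and stromal cells (-0.05 ± 0.22, edgeR adjusted p = 0.844).

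**Figure D2:**
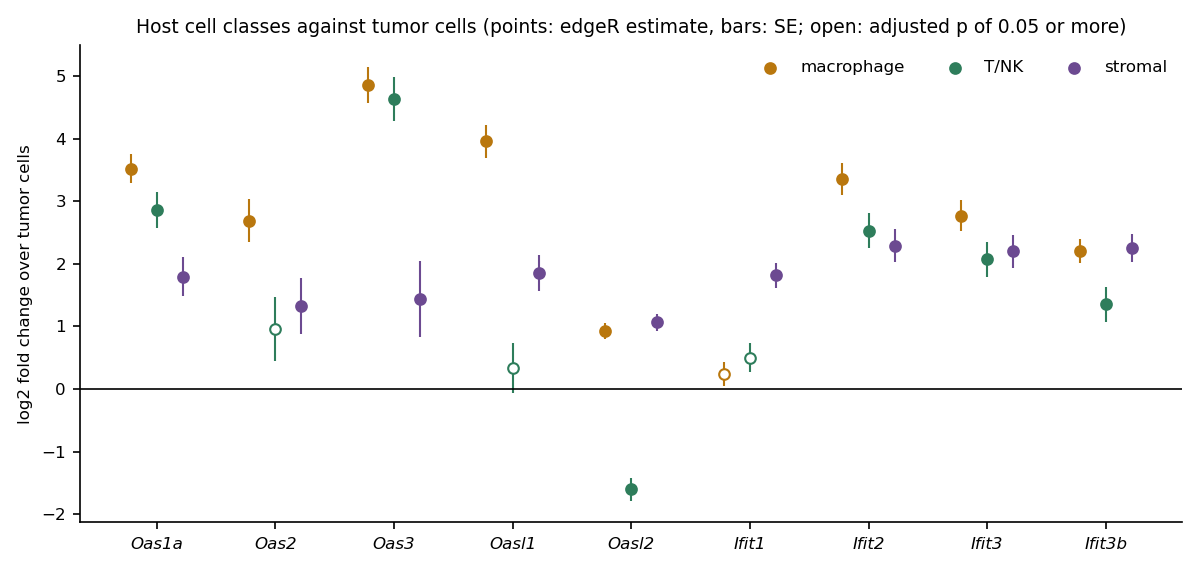
Points are the edgeR log2 fold changes of macrophages, T/NK cells and stromal cells over tumor cells (y axis) for each gene (x axis), bars are SE over 28 summed profiles of 7 tumors, and open points have an adjusted p of 0.05 or more. Oas3 in macrophages lies highest at 4.86, and Oasl2 in T/NK cells is the single point below 0 at -1.60.

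Counted over the families, 8 of 9 members were higher in macrophages than in tumor cells and none was lower, against 38.4% and 44.0% of the 14897 genes tested. All 9 were higher in stromal than in tumor cells (30.5% of genes were higher and 33.0% lower). In T/NK cells 5 members were higher and 1 lower than in tumor cells (30.4% and 44.8% of genes). Macrophages were higher than T/NK cells for 7 members and lower for none (37.9% and 25.5%), and higher than stromal cells for 6 and lower for 1 (37.0% and 36.8%). T/NK cells were higher than stromal cells for 2 members and lower for 4 (27.7% and 39.0%). In all, 43 of 54 class differences passed the threshold, and 30 of them did so in the same direction under each of 15 alternatives. Those 30 include all 8 of macrophages over tumor cells, but of the 7 over T/NK cells only Oasl1 and Oasl2. None of the 15 alternatives left out the macrophage cluster led by Slfn4 that is described below. Scaling matters here, since with totals in place of TMM factors the median of all genes moved by -0.40 for macrophages against T/NK cells, -0.45 against stromal cells and -0.38 against tumor cells. The share of calls that were higher in macrophages moved with it, from 59.8% to 41.9%, from 50.2% to 31.6% and from 46.6% to 34.9%. The differences of Oasl1 and Oas3 between macrophages and tumor cells were several times that shift.

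Within the stromal class the members were not spread evenly. Fibroblasts summed over tumors had 192 CPM of Oasl2 and 204 of Ifit1, endothelial cells had 92.1 and 139, and pericytes had 68.2 and 65.0. Ifit2 was at 84.9 in fibroblasts and 79.1 in endothelial cells but 11.3 in pericytes, from 18 UMIs. These parts were not tested.

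RNA released from macrophages or tumor cells could appear in droplets of other classes. Lyz2, an abundant macrophage transcript, reached 0.621% to 1.84% of its macrophage level in T/NK cells, 0.284% to 0.922% in stromal cells and 0.202% to 0.457% in tumor cells. By the median of 7 tumors each family member reached more than Lyz2, with Oasl1 in T/NK cells at 14.3% of its macrophage level and Oas3 in tumor cells at 3.599%. Tyrobp, another macrophage transcript not used in the gates, reached 0.352% to 1.36% in stromal cells and 0.203% to 0.456% in tumor cells. In T/NK cells Tyrobp reached 2.90% to 13.3%, a range that overlapped the 6.82% to 21.9% of Oasl1. Tyrobp was there found in fewer cells than Lyz2 (median 14.2% against 23.8%) but at a higher level (median 158 against 64.8 CPM). Whether some T/NK cells make Tyrobp themselves was not tested, so it may not measure macrophage RNA in that class. No subtraction was scaled by Tyrobp. With the macrophage level taken off in proportion to Lyz2, between 90.9% and 99.8% of each member's level remained (medians over tumors). H19, a transcript abundant in the tumor cells and not used to gate them, reached more of its tumor cell level elsewhere, at 1.76% to 3.57% in macrophages, 0.504% to 5.41% in T/NK cells and 2.64% to 14.8% in stromal cells. With the tumor cell level taken off in proportion to H19, the median share that remained ran from 95.7% to 99.98%. The lowest share in a single tumor was that of Oasl2 in T/NK cells, at 76.7%. Both subtractions were chosen after seeing the data.

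The study's design sets irradiated against control tumors, to ask what radiation leaves in the tumor at harvest. In macrophages all 9 members had higher means in irradiated tumors, but the groups overlapped for each of them (2.75% of genes lay wholly above the controls), and none passed the threshold. Ifit2 had 151 ± 81.4 CPM (mean ± SD, n = 4) against 72.9 ± 11.2 (n = 3), Oasl1 had 156 ± 89.6 against 79.9 ± 22.7, and Ifit3 had 151 ± 68.7 against 76.4 ± 32.7. By tumor, Ifit3 had 57.2, 198, 141 and 206 in irradiated and 114, 52.4 and 63.1 in control tumors. For these genes irradiated tumors 2, 3 and 4 lay above every control, while irradiated tumor 1 lay among or below the controls. The log2 fold changes ran from 0.30 (Oas1a) to 1.16 (Ifit3b), with a median of 0.95, and all 9 were above 0, where 48.8% of 13056 genes were. The difference was 1.04 ± 0.42 for Ifit2, 0.91 ± 0.37 for Oasl2 and 0.73 ± 0.27 for Oas2 (edgeR adjusted p = 0.816 for each). edgeR called 0 members and 0.0% of all genes, with 3 members and 5.0% of genes at an unadjusted p under 0.05. DESeq2 called 0 members, with 6 members and 683 of 13056 genes at an unadjusted p under 0.05. Without irradiated tumor 1 the median was 1.21, and 8 members and 1790 of 13071 genes had an unadjusted p under 0.05 (edgeR). Without irradiated tumor 4 the median was 0.70, with no member and 304 of 12922 genes at that level. Without control tumor 1 it was 1.28, with 6 members and 1201 of 13259 genes.

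T/NK cells held the only member whose groups did not overlap. Oas3 there had 34.6 ± 6.10 CPM in irradiated and 17.6 ± 6.03 in control tumors, and its lowest irradiated value, 26.5, was above the highest control value, 23.4. Among the 7553 genes tested 4.5% were likewise above all controls. The difference was 0.89 ± 0.29 with an unadjusted p of 0.00736 and an edgeR adjusted p of 0.930. Ifit2 went the other way, with 71.2, 38.9, 70.4 and 86.6 in irradiated and 179, 53.8 and 87.2 in control tumors, a difference of -0.74 ± 0.40 (edgeR adjusted p = 0.955) in which control tumor 1 alone lay far above the rest. Over the 9 members the median was 0.11, and 6 were above 0 against 49.4% of genes. edgeR called 0 members and 0.0% of genes, with 1 member and 4.87% of genes at an unadjusted p under 0.05. DESeq2 called 0 members, with 2 members and 209 of 7553 genes at that level.

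In stromal cells 8 members had enough counts to test, Oas3 being too low, and the median difference was 0.30. Oasl2 had 177 ± 78.1 against 97.6 ± 48.0 CPM, a difference of 0.82 ± 0.46 (edgeR adjusted p = 0.8288), and its groups overlapped through irradiated tumor 1. None of the 8 separated the groups, as 3.9% of genes did with irradiated tumors above. edgeR called 0 members and 0.0% of genes, with 0 members and 6.19% of genes at an unadjusted p under 0.05. DESeq2 also called 0 members, with 1 member and 476 of 10473 genes at that level. Without control tumor 1 the median was 1.05 and without control tumor 3 it was -0.08.

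In tumor cells all 9 members had log2 fold changes above 0 (46.5% of genes did), with a median of 0.92. The difference was 1.70 ± 1.04 for Oas3, 1.49 ± 0.96 for Oas2 and 0.43 ± 0.30 for Ifit2. Ifit3 had 8.78, 44.9, 17.7 and 51.4 in irradiated and 25.7, 9.71 and 10.98 in control tumors. The groups overlapped for all 9 members, where 1.43% of genes lay wholly above the controls. For Ifit3, irradiated tumor 1 lay just below control tumors 2 and 3, and control tumor 1 lay between irradiated tumors 3 and 2. edgeR called 0 members and 0.0% of 17332 genes, with 0 members and 1.27% of genes at an unadjusted p under 0.05. DESeq2 called 0 members, with 0 members and 238 of 17332 genes at that level. Without control tumor 1 the median was 1.79 and without control tumor 2 it was 0.55.

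The same libraries were high or low in all 4 classes. On the log2 scale the mean of the 9 genes in tumor cells was 1.89, 4.43, 3.54 and 4.82 in irradiated tumors 1 to 4 and 3.92, 1.93 and 2.12 in control tumors 1 to 3. In macrophages it was 4.93, 6.45, 5.98 and 6.67, and 5.78, 4.74 and 4.95. In stromal cells it was 4.35, 6.01, 5.54 and 6.03, and 6.07, 4.62 and 4.19. In T/NK cells, where the spread was smallest, it was 4.84, 4.98, 5.31 and 5.56, and 5.27, 4.73 and 4.92. In all 4 classes the 4 tumors of technical set 2, control tumor 1 among them, lay above the 3 of technical set 1. Gene by gene, set 2 lay wholly above set 1 for 9 of 9 members in macrophages (15.6% of all genes did), 9 of 9 in tumor cells (18.4%), 6 of 9 in stromal cells (6.39%) and 1 of 9 in T/NK cells (7.27%). Within set 1 the single irradiated tumor differed from the mean of its 2 controls by 0.08 in macrophages, 0.02 in T/NK cells, -0.06 in stromal cells and -0.13 in tumor cells. Within set 2 the 3 irradiated tumors differed from the single control by 0.59, 0.02, -0.21 and 0.34, against 0.85, 0.20, 0.52 and 1.01 over all tumors. With the technical set as a term in the edgeR fit, the members' median log2 fold change was 0.42 in macrophages, -0.05 in T/NK cells, -0.18 in stromal cells and 0.20 in tumor cells, and no member was called. Since 3 of 4 irradiated tumors and 1 of 3 controls are in set 2, the part of the difference that belongs to radiation and the part that belongs to the sets cannot be fully told apart in 7 tumors.

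**Figure D3:**
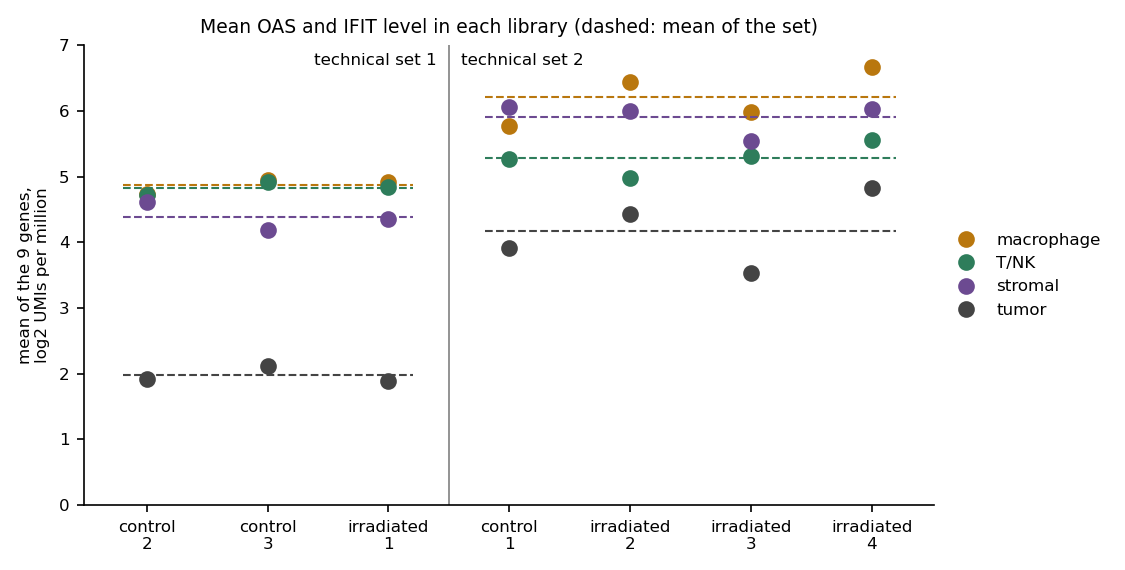
Each point is the mean of the 9 genes in 1 library and class (y axis, log2 CPM), and dashed lines are the means of the set. In tumor cells the 3 libraries of technical set 1 lie between 1.89 and 2.12 and the 4 of technical set 2 between 3.54 and 4.82, with control 1 among the latter.

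**Figure D4:**
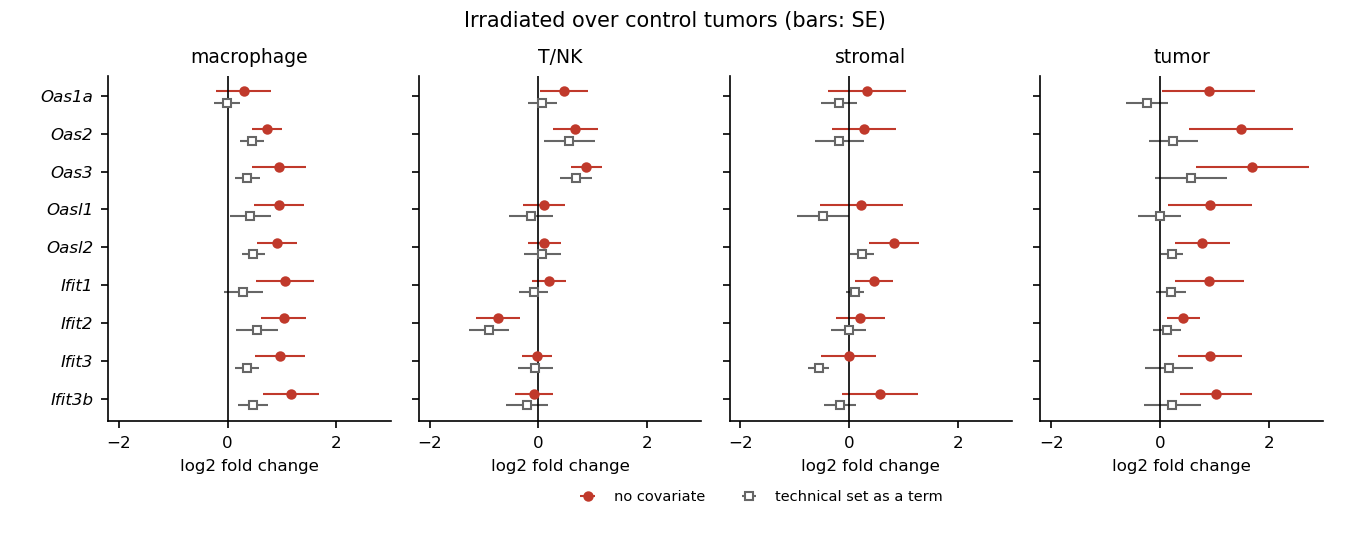
Log2 fold changes of irradiated over control tumors (x axis) with SE for each gene and class, without a covariate (filled) and with the technical set as a term (open squares). In tumor cells Oas3 moves from 1.70 to 0.57 and in macrophages Ifit3b moves from 1.16 to 0.47 when the set is a term.

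Whether the difference with radiation varied between classes was tested for each member and each pair of classes, by the exact permutation test over the 35 splits of the 7 tumors (two-sided, smallest possible p 0.0286). Of 54 tests, 1 reached that smallest p, for Ifit3 (0.81 more on the log2 scale in macrophages than in stromal cells), and the lowest adjusted p was 0.82. With that smallest p, no test could pass adjustment unless many others also reached it. The tests with 7 tumors therefore could not decide whether the difference varied between classes.

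Summed levels do not say how many cells carry the transcripts. Each cell was thinned to 2000 UMIs for this comparison, leaving out shallower cells. These were 517 macrophages and 135 T/NK cells of irradiated tumors, and 938 and 236 of control tumors. The share of macrophages with a UMI of any member was 45.5% ± 14.7 in irradiated and 28.9% ± 10.2 in control tumors (exact permutation p = 0.143, adjusted p = 0.257 over 12 tests), and without thinning it was 69.8% ± 18.6 and 48.0% ± 24.3. In tumor cells the thinned share was 23.0% ± 8.91 and 13.2% ± 8.01 (exact p = 0.171). In stromal cells it was 43.0% ± 8.69 and 30.8% ± 5.47 (exact p = 0.0857), and in T/NK cells 33.0% ± 5.56 and 24.5% ± 7.04 (exact p = 0.171). In T/NK cells, the tenth of cells richest in member UMIs held 62.3% ± 6.92 of them in irradiated and 81.2% ± 2.85 in control tumors, with no overlap between the groups (exact p = 0.0286, the smallest possible, and adjusted p = 0.257). Thinned to 4000 UMIs, with 18 to 135 cells left per tumor, it was 56.9% ± 8.34 and 75.8% ± 16.5, and the groups overlapped (exact p = 0.0857). None of the 12 comparisons passed adjustment. With a smallest possible p of 0.0286, none could have passed unless several others also reached it.

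Within classes, a few clusters of cells held much of the signal. Cells were clustered without the 9 genes, although other interferon-stimulated genes were left in, and 1 macrophage cluster of 2830 cells led by Slfn4, Slfn1 and Ly6c2 stood out. This cluster may include monocytes, which Ly6c2 marks and for which the gates held no list. It held 6.62% to 65.7% of a tumor's macrophages. Inside it the 9 genes summed to 1657 to 2775 CPM across tumors, and outside it macrophages had 153 to 348. The levels inside overlapped between groups, at 1973 ± 251 in irradiated and 2366 ± 617 in control tumors. Ifit3 had a median of 514 inside and 23.2 outside, and Oasl1 331 and 48.9. Outside it Oasl2 had 41.1, 74.3, 61.0 and 69.4 CPM in irradiated and 49.9, 30.1 and 32.7 in control tumors. By CPM this was below tumor cells in irradiated tumors 2, 3 and 4 and control tumor 1. Ifit3 and Ifit3b outside it were below tumor cells in irradiated tumors 2 and 4 and control tumor 1, Ifit3b also in control tumors 2 and 3. Oas1a, Oas2, Oas3, Oasl1 and Ifit2 stayed above in every tumor. Class differences were not tested without the cluster. Since the genes that define this cluster include interferon-stimulated ones, its high level is in part how it was found, and its share is given with no test. It held 7.23%, 43.2%, 24.9% and 65.7% of macrophages in irradiated tumors 1 to 4 and 27.6%, 6.62% and 7.04% in control tumors 1 to 3, so its share was high in the 4 tumors of technical set 2. Of its cells 71.4% came from irradiated tumors, 39.8% of all from irradiated tumor 4. By tumor, the cluster's share of macrophages overlapped between the groups, with irradiated tumors 1 and 3 below control tumor 1. Whether this share differed with radiation was not tested. Its part in the group difference in macrophages was not tested beyond the value outside the cluster. Among macrophages outside it, the members' median difference with radiation was 0.62 and none was called. There 5 members and 474 of 12787 genes had an unadjusted p under 0.05 (edgeR). Among tumor cells, clusters ranged from 45.4 CPM in the one led by Lingo2 to 366 in the one led by Ace and Clstn2. These are values of pooled cells, and libraries gave unequal shares, with control tumor 3, a low library, giving 53.5% of the Lingo2-led cells and control tumor 1, a high one, giving 28.3% of the Ace-led cells, so the order of clusters cannot be told apart from the libraries. The fibroblast cluster had 705, and of the T/NK clusters the one led by Xcl1 and Fasl had 390 and the one led by Foxp3 had 309.

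**Figure D5:**
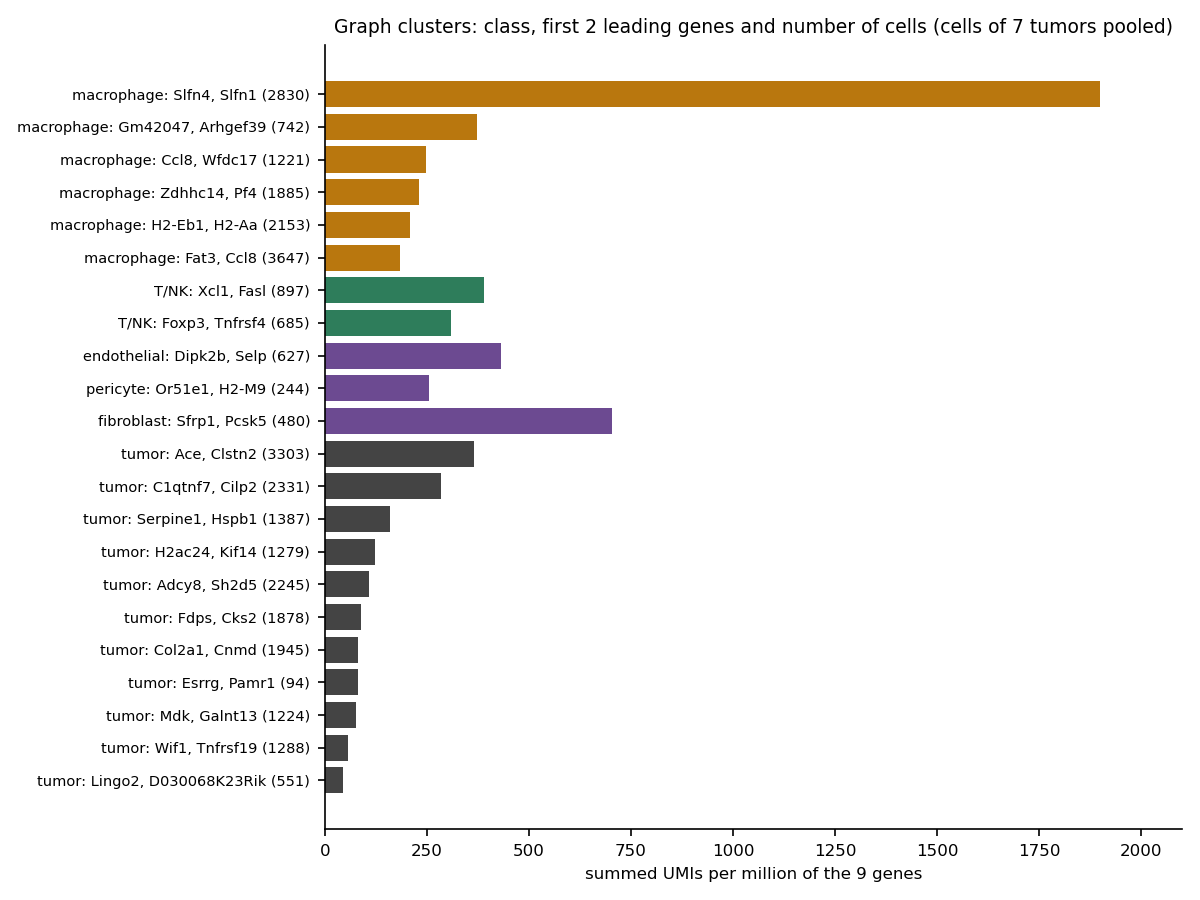
Bars give the summed level of the 9 genes in CPM (x axis, from 0) in each graph cluster of the 4 classes, cells of 7 tumors pooled, with the first 2 leading genes and the number of cells. The macrophage cluster led by Slfn4 reaches 1900, against 184 to 373 in the other macrophage clusters and 45.4 to 366 in tumor cell clusters.

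Other genes of the 2-5A pathway were not all arranged like its synthetases. Enpp1, an ectoenzyme that can degrade 2-5A, had a median of 110 CPM in tumor cells and 19.5 in macrophages (log2 fold change of macrophages over tumor cells -2.11). Abce1, known as a ribosome recycling factor, was also lower in macrophages (-0.85), and Pde12, a phosphodiesterase that cleaves 2-5A, was higher (0.57). These differences passed the edgeR threshold, which 38.4% of all genes passed as higher in macrophages and 44.0% as lower. That of Pde12 was not much larger than the -0.38 by which scaling moved the median of all genes. None of these 2-5A pathway genes was called between irradiated and control tumors in any class. At an unadjusted p under 0.05, the only one was Enpp1 in T/NK cells, at 22.7 CPM in control and 9.23 in irradiated tumors on average.

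Upstream, 11 of 12 receptors, kinases and factors were higher in macrophages than in tumor cells (38.4% of all genes were), with Irf7 at 4.77, Ifnar2 at 3.37 and Ifnar1 at 3.14. Irf1 did not differ beyond error (-0.07). Ifnar1 and Ifnar2 were almost level across irradiated and control tumors in macrophages, with log2 fold changes of 0.01 and 0.03, whereas those of Irf7 and Stat2, themselves interferon-inducible, were 0.96 and 0.86. None of the 12 was called, and 4 had an unadjusted p under 0.05 (edgeR), as did 5.0% of all genes. In tumor cells those of Irf7 and Stat2 were 0.96 and 0.77, with none of the 12 at that level. Of the interferon ligands, Ifng was the only one tested in T/NK cells, at 38.9 to 236 CPM, with a difference of -0.08 between irradiated and control tumors. Ifnb1 was tested only in macrophages, from 71 UMIs, with a difference of 1.27 ± 0.82 that was not called.

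Of 20 other interferon-stimulated genes, 17 were higher in macrophages than in tumor cells (38.4% of all genes were), with Ifi27l2a at 5.48, Rsad2 at 3.81 and Mx1 at 3.602. Between irradiated and control tumors none was called in any class (edgeR). In macrophages all 20 differences were above 0 (48.8% of all genes were), with a median of 0.88. Of the 20, 9 had an unadjusted p under 0.05 (5.0% of all genes did). The largest were those of Isg20 (1.18), Mx1 (1.12) and Rsad2 (1.03). These counts are not of independent genes. Trim30a, Herc6, Usp18, Sp100 and Xaf1, for example, had correlations of 0.95 to 0.97 with the members' mean across the same libraries. No values with the technical set as a term are given for the 20. In tumor cells the median of the 20 was 0.74, with Ifi27l2a at 1.44. Among 8 nucleic acid sensors Zbp1 had the largest difference in macrophages (1.05) and in tumor cells (1.15), and none was called. Of 9 further OAS and IFIT copies, 5 were tested in macrophages and none was called, the largest difference being that of Ifit1bl1 (1.41). The 15 dissociation stress genes, which mark handling of the tissue, had median differences of -0.03 in macrophages, -0.38 in T/NK cells, -0.41 in stromal cells and -0.49 in tumor cells, with none called. Their part in the members' differences was not tested.

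The members varied together across libraries and classes. After subtracting each class mean, the 36 pairs of members had Pearson correlations of 0.51 to 0.96 over the 28 summed profiles, in which the 4 classes of a tumor share a library. Each member's correlation with the mean of the others was 0.86 to 0.94, except for Ifit2 at 0.72. The genes outside the families most like their mean, among 6831 compared, were Trim30a, Herc6, Usp18, Sp100, Stat2, Ifi206, Xaf1, Irf7, 9930111J21Rik2 and Sp110, with correlations of 0.97 down to 0.94. These values describe the same 7 libraries that parted into sets and carry no test.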

How the data were processed

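Per the labels and methods, the authors aligned 10x Genomics 3′ libraries with Cell Ranger and used Seurat 4.4; the deposited files are raw UMI counts per gene and barcode. The genome is given as mm10, but the file headers name Cell Ranger 8.0.0, a later version than the methods, and some gene symbols are newer, so the annotation behind the counts is uncertain, and with it the shared 3′ windows. From 39537 barcodes, 34300 passed filters within 3 median absolute deviations, and no doublets were called. Classes needed 3 markers and a 2-fold lead over other lists. The tumor gate first written kept 988 cells because tumor cells carry fibroblast and pericyte markers. After the data were seen, those lists no longer competed where Xist was 0. Counts were summed per tumor and class (at least 20 cells) and tested with edgeR 4.0.16 (TMM, quasi-likelihood, Benjamini-Hochberg adjustment over all genes, threshold 0.05), with DESeq2 1.42.0 as an alternative, in R 4.3.3; clustering used scanpy 1.11.5. The 9 genes, the pathway lists and the rule for named genes (the members, the 2-5A pathway and receptor lists, up to 3 of each other list by size, and the 10 most alike) were chosen with earlier results of these data known. The fits were tested on simulated data. Tumors are separate samples by their labels, and p-values of irradiated against control tumors measure the spread between them. In the class comparisons the tumor was a block, so those p-values measure how far class differences vary from tumor to tumor. Replicate numbers in the labels did not pair tumors (correlations of same-numbered tumors' deviations, -0.45 to 0.15). Some members of the pathway lists, and part of the line's genotype, are not reported here.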

Additional observations from a re-analysis of the deposited data

Results flagged for a closer look

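Outside the 4 classes, 34 cells carried neutrophil markers, and in them the 9 genes summed to 814 CPM (counts per 1000000 UMIs), from 60 member UMIs among 73745. This level lay within the range of macrophages over the 7 tumors. Its relation to irradiation was not tested. By Dixon's test at its 95% critical value for 4 samples, no irradiated tumor was an outlier in any of 36 gene and class combinations. The test passes only very isolated values, and the 3 control tumors were too few for it.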

How the results depend on the processing

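No member was called between irradiated and control tumors under any alternative run. Leaving out 1 tumor at a time gave median log2 fold changes of 0.70 to 1.28 in macrophages, -0.15 to 0.34 in T/NK cells, -0.08 to 1.05 in stromal cells and 0.55 to 1.79 in tumor cells. With the replicate block the medians were 0.60, -0.13, 0.37 and 0.64, and no call changed. Of the class counts, members called between macrophages and T/NK cells went from 7 to 4 with totals only, 4 with the stricter gate of 5 markers and 3 in control tumors only. All reversals concern differences that were not called. Between groups only some members were followed gene by gene. Among these, Oas1a in macrophages was -0.0089 with the technical set as a term and, with 1 tumor left out, ranged from -0.044 (without control tumor 2) to 1.28. Other members changed sign too. With the technical set as a term, members above 0 went from 7 to 2 in stromal cells, 9 to 7 in tumor cells and 6 to 4 in T/NK cells. They went to 3 in stromal cells without control tumor 3 and to 3 in T/NK cells without irradiated tumor 4. Between macrophages and T/NK cells, Oas3 was -0.18 with totals only, and Ifit1 was 0.0028 with classes from clusters and 0.017 in irradiated tumors only. Between macrophages and stromal cells, Oasl2 was 0.031 with classes from clusters, and Ifit3b was 0.074 with every gene of 1 UMI, 0.060 with the stricter gate, 0.25 with classes from clusters, 0.18 in irradiated tumors only and -0.11 to 0.11 with 1 tumor left out (0.11 without control tumor 1). Ifit1 between macrophages and tumor cells was -0.14 with totals only. Between T/NK and stromal cells, Ifit2 was -0.20 in irradiated tumors only, and Ifit3 was 0.23 with the stricter gate and -0.32 to 0.059 with 1 tumor left out (above 0 without irradiated tumor 2, at 0.057, and without control tumor 1). The cause of these moves was not tested. Over all genes, edgeR called 67 in T/NK cells and 11 in stromal cells with every gene of 1 UMI, and DESeq2 called 4 in macrophages and 1 in tumor cells, against 0. The tumor gate as first written, an alternative chosen after seeing the data, left 5 members to test with a median of 1.84 and none called.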

Other observations

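Cells that met no class held family transcripts too. The 4451 unassigned cells had 264 CPM of the 9 genes, and 128 cells with dendritic markers had 286. By graph cluster, 383 dendritic cells had 527. A graph cluster of 57 cells led by Retnlg, nearest to the neutrophil list, had 1986, above the 814 of the cells gated by neutrophil markers.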
